A study of Mus musculus with 12 samples.

Results

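The 8 genes described here make extracellular adenosine from nucleotides (Entpd1 and Nt5e), receive it (Adora2a, Adora2b and Adora3) or clear it (Slc29a1, Ada and Adk). They were taken by symbol from a table of 32285 genes, and the set was selected on the counts of Nt5e, which are far higher with malonic acid than with medium alone. The difference between malonic acid and medium is therefore given as a description, with no test for any of the 8 genes, and so is the level of Nt5e in malonic acid against any other group. All 8 genes passed the filter on low counts, which kept 14113 genes.

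Poly(A) RNA was sequenced from wild-type (WT) mouse bone marrow-derived macrophages, which are macrophages grown in culture from marrow precursors. The cells were held for 16 h with malonic acid (MA), itaconic acid (IA) or methylsuccinic acid (MetSA), each at 5 mM from a 50 mM stock in RPMI, or in medium alone (M). Each of the 4 groups had 3 biological replicates, which the labels do not tie to separate mice, so the p-values measure the spread between these cultures. Itaconic acid carries a carbon-carbon double bond that methylsuccinic acid, its saturated counterpart, lacks, and malonic acid is a shorter dicarboxylic acid. The labels name no sex, age or strain for the mice, and no stimulus besides the acids.

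ATP and ADP that leave a cell are cut to AMP by the ectonucleotidase CD39, the product of Entpd1, and AMP is cut to adenosine by the ecto-5′-nucleotidase CD73, the product of Nt5e. Adenosine acts on G protein-coupled receptors, of which the products of Adora2a and Adora2b raise cyclic AMP and that of Adora3 couples to inhibitory G proteins. It is removed by uptake through the equilibrative transporter ENT1 (Slc29a1), by deamination to inosine (Ada) and by phosphorylation back to AMP (Adk), and in macrophages its receptors are known for damping inflammatory cytokine release.

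Library totals lay between 46892488 and 54252486 counts. Macrophage markers were high in every library, with a summed level of 25601 to 34411 CPM (counts per TMM-scaled library size) over 10 genes. Lyz2 made up most of that sum, with group means of 14970 to 21286 CPM, and single markers differed between groups. Fcgr1 averaged 312 CPM in MA, 1748 in IA and 1155 in MetSA, against 307 in M. Adgre1 averaged 1948 CPM in MA, 2997 in IA and 3165 in MetSA, against 2628 in M. MetSA replicate 3 stood apart from the other MetSA libraries, with a chi-square per degree of freedom of 59.7 and 48.0 against them where other replicate pairs had 9.60 to 31.6, and log2 fold changes of the 8 genes that involve MetSA are given with and without it where they are printed. RNA was taken from whole cultures, so fewer cells expressing a gene and less RNA per cell cannot be told apart.

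Promoter windows of 300 bases, 250 before and 50 after an annotated start, were taken from RefSeq (GRCm38.p6) for 7 of the 8 genes, and those of Nt5e, Slc29a1 and Entpd1 are shown. Nt5e and Slc29a1 gave every call among the 8 genes in the main fit. Entpd1 is the partner of Nt5e in the same chain and had no call there. The windows lie at chr9:88327359-88327658 on the plus strand (Nt5e), at chr17:45599569-45599868 on the minus strand (Slc29a1, the outermost of 8 annotated starts) and at chr19:40612116-40612415 on the plus strand (Entpd1, the first of 2 starts). Capitals mark matches, on either strand, to the motifs named after the sequences.
Nt5e: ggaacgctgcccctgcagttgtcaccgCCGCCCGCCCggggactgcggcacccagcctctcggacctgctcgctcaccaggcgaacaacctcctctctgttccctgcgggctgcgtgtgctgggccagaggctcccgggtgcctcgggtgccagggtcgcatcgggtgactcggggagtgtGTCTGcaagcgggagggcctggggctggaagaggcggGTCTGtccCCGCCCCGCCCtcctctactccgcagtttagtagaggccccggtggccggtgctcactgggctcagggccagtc
Slc29a1: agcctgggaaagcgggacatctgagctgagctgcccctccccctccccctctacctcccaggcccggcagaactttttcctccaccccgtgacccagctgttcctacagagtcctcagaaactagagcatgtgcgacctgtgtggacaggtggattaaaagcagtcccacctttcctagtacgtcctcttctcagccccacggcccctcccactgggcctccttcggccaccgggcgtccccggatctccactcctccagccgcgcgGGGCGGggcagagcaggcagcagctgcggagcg
Entpd1: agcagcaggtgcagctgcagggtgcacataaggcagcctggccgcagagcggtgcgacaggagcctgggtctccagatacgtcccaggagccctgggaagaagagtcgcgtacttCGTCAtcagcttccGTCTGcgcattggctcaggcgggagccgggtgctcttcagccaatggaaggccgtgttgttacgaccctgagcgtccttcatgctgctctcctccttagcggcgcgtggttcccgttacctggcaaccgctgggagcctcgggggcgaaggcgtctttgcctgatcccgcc

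The motifs searched were the cAMP response element TGACGTCA and its core TGACG, the Smad palindrome GTCTAGAC and its core CAGAC, the hypoxia response core ACGTG, AP-1 TGANTCA, SP1 GGGCGG and the TATA box TATAAA. The cAMP core lies within the whole element. The Nt5e window held 2 Smad cores, which start 69 and 32 bases before the annotated start, and 4 SP1 matches, which overlap in 2 pairs. Over all 32851 windows, 49.6% held a Smad core and 35.7% an SP1 match, so both motifs are common at this length. The Slc29a1 window shown held 1 SP1 match. The Entpd1 window held a cAMP core, present in 20.8% of all windows, and a Smad core. None of these 3 windows held a whole cAMP element (1.79% of all windows) or a TATA box (13.6%). The GC share was 71% for Nt5e, 65% for Slc29a1 and 64% for Entpd1, against a median of 52.7% over all windows. A match is a description of the letters, and binding was not measured.

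Entpd1, at the head of the chain, was the most abundant of the 8 genes in every group and was called in no comparison. The gene lies at chr19:40612366-40741602. It was at 191, 198 and 195 CPM in MA, 171, 189 and 192 CPM in IA, 175, 197 and 213 CPM in MetSA, and 194, 203 and 203 CPM in M. The 3 IA libraries lay just below all M libraries, and the other groups overlapped M. The log2 fold change was -0.12 in IA against M (SE 0.07, 95% interval -0.26 to 0.02, adjusted p = 0.181 by edgeR's quasi-likelihood fit) and -0.04 in MetSA against M (SE 0.07, adjusted p = 0.756), which was -0.11 without MetSA replicate 3 (adjusted p = 0.304). With upper-quartile scaling the IA value was -0.21 and was called (adjusted p = 0.0220). MA against M gave -0.04 (95% interval -0.18 to 0.11, no test).

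Nt5e, which makes the adenosine itself, had the widest relative range of levels among the 8, and it was selected for its level in MA. It lies at chr9:88327197-88372092 on the plus strand of mm10 and has 8602 exonic bases. Its level was 19.4, 18.0 and 14.5 CPM in the MA libraries. It was 2.85, 1.90 and 1.81 CPM in IA, 0.906, 1.42 and 1.33 CPM in MetSA, and 0.745, 0.519 and 0.974 CPM in M. The lowest MA library was above every other library, and the IA libraries were above all MetSA and M libraries, while MetSA and M overlapped. These values rest on 752 to 1042 counts in MA, 86 to 134 in IA, 44 to 72 in MetSA and 28 to 51 in M.

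Group means of Nt5e were 17.3 ± 2.5 CPM in MA, 2.19 ± 0.58 in IA, 1.22 ± 0.28 in MetSA and 0.746 ± 0.23 in M (SD, n = 3 in each). The level in MA, which chose the gene, was 23.2-fold that in M (log2 fold change 4.53, SE 0.23, 95% interval 4.04 to 5.02), 7.90-fold that in IA (2.98, SE 0.21) and 14.1-fold that in MetSA (3.82, SE 0.22, and 3.89 without MetSA replicate 3). Leaving out each library in turn moved the value for MA against M between 4.32 and 4.78.

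Nt5e also rose with IA, by a much smaller step. IA against M gave a log2 fold change of 1.55, or 2.93-fold (SE 0.25, 95% interval 1.03 to 2.07, adjusted p = 6.62e-05 by edgeR's quasi-likelihood fit), with all 3 IA libraries above all 3 M libraries. The M libraries of this test also stood in the contrast that chose the gene. MetSA against M gave 0.71 (SE 0.26, 95% interval 0.16 to 1.26, adjusted p = 0.0613), which missed the threshold. Without MetSA replicate 3 that value was 0.65 (adjusted p = 0.139), while without M replicate 3 it was 0.96 and called (adjusted p = 0.0253), as it was by DESeq2 (adjusted p = 0.0257).

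IA against MetSA compares acids that differ by the double bond, and no library that chose the genes stands in the contrast. The spread was estimated over all 12 libraries, though, so those of MA and M also enter the p-value. Nt5e was 1.79-fold higher with IA (log2 fold change 0.84, SE 0.23, 95% interval 0.35 to 1.33, adjusted p = 0.0386 by edgeR), with no overlap between the 3 libraries of each group. The call depends on single libraries. It was lost without IA replicate 1, where the value fell to 0.61 (adjusted p = 0.202), without MetSA replicate 1 (adjusted p = 0.117), without MetSA replicate 3 (0.90, adjusted p = 0.0703), without IA replicate 2 (adjusted p = 0.0526) and without MA replicate 2 (adjusted p = 0.0587). It was lost too when the fit held the libraries of IA and MetSA alone (adjusted p = 0.112).

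**Figure D1:**
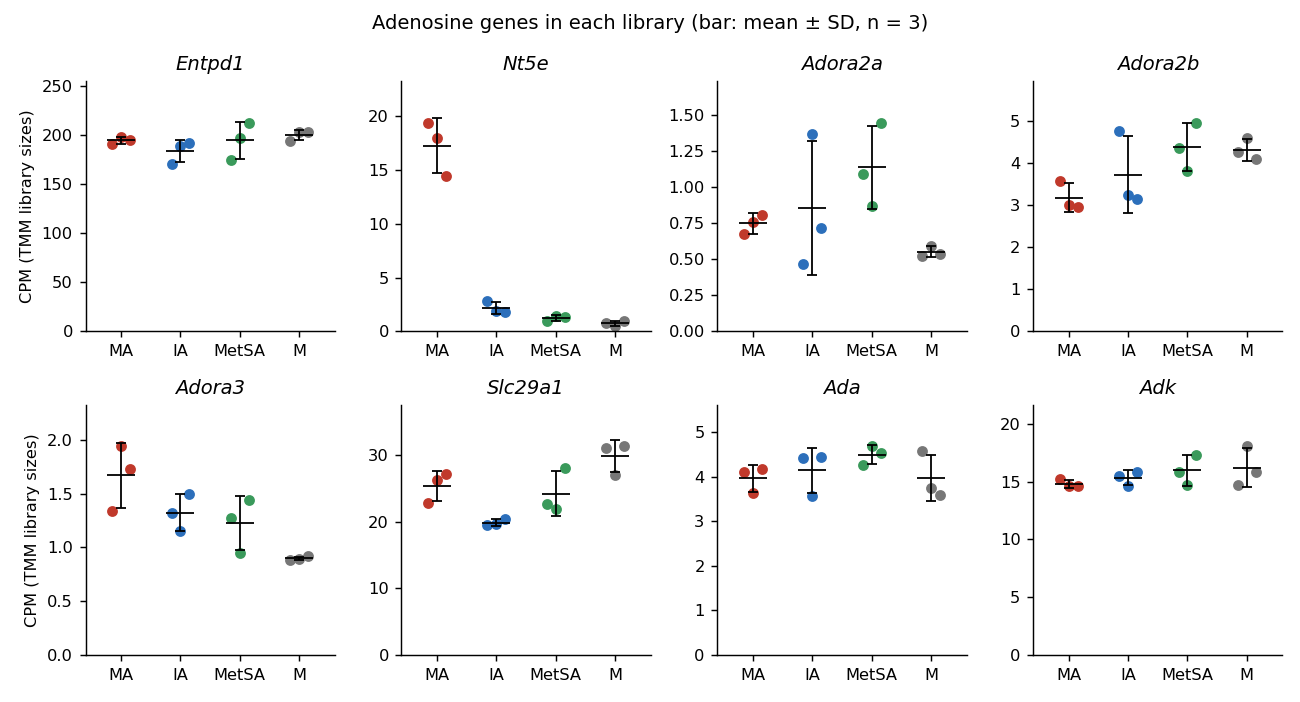
Level of each of the 8 genes in CPM (y axis, from 0, own scale per gene) in the 3 libraries of MA, IA, MetSA and M, with black bars for mean ± SD. Nt5e is at 14.5 to 19.4 CPM in MA and at most 2.85 CPM in the other groups, and Slc29a1 is lowest in IA.

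CD73 is also made by endothelial, stromal and lymphoid cells, so markers of those types were read in the same libraries. The summed level of 7 endothelial markers was 92.3 to 105 CPM in MA, 70.4 to 77.9 in IA, 42.9 to 56.0 in MetSA and 42.4 to 49.1 in M. Its members did not move together. Vwf averaged 88.7 CPM in MA, 29.3 in IA and 19.3 in MetSA, against 38.1 in M. Kdr averaged 3.83 CPM in MA, 31.7 in IA and 17.3 in MetSA, against 3.80 in M. Pecam1 averaged 4.38 CPM in MA, 10.7 in IA and 12.8 in MetSA, against 4.13 in M. Cldn5 was at 0 in all 12 libraries, and Tek and Emcn stayed at or below 4 counts. Cdh5, the endothelial cadherin, averaged 0.828 CPM in MA, 2.55 in IA and 1.96 in MetSA, against 0.573 in M. The part of such cells in the Nt5e levels was not tested. Summed stromal markers, of which 5 of 10 were under 1 CPM in every library, overlapped between all 4 groups, at 14.2 to 36.5 CPM in MA and 11.8 to 42.3 in M. T and NK markers summed to 232 to 236 CPM in MA, 309 to 330 in IA, 228 to 235 in MetSA and 154 to 169 in M. Il7r and Cd4 made up that sum, 6 of the 8 were under 1 CPM in every library, and Cd3e had at most 4 counts.

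The neighbours of Nt5e on chromosome 9 were read as well. Nt5e was selected for its rise with MA, so its distance from them in MA against M follows from that choice. The annotation holds 20 other genes within 250 kb of the gene body, of which 6 passed the filter. In MA against M none of the 6 was called by edgeR or DESeq2 and none had an unadjusted p under 0.05, where edgeR called 20.3% of all genes, so a count of 0 among 6 is near the background. Their log2 fold changes lay between 0.06 and 0.21. The nearest, Snx14, a sorting nexin gene 4.658 kb away, was at 62.2 ± 2.2 CPM in MA and 59.6 ± 4.7 in M (0.06, adjusted p = 0.595). In IA against M, where Nt5e rose, Snx14 fell by 0.30 on the log2 scale (adjusted p = 0.00205 by edgeR). Syncrip, which encodes an RNA-binding protein, fell by 0.29 (adjusted p = 0.00534). That is 2 of 6, where 35.2% of all genes were called and 17.3% were called lower. The Syncrip call was lost without IA replicate 3. In MetSA against M Snx14 fell by 0.20 (adjusted p = 0.0434), a call lost in 11 of 20 alternatives. Zfp949, Snhg5, Gm28229 and 9430037G07Rik were not called in IA or MetSA against M. In MA against IA, Snx14, Syncrip, Snhg5 and Gm28229 of the 6 were higher, by 0.36 to 0.96 on the log2 scale. There 34.6% of all genes were called and 16.8% were called higher. In MA against MetSA Snx14, Syncrip and Snhg5 were higher, by 0.26 to 0.52. There 26.4% of all genes were called, and 1640 of 14113 were called higher.

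**Figure D2:**
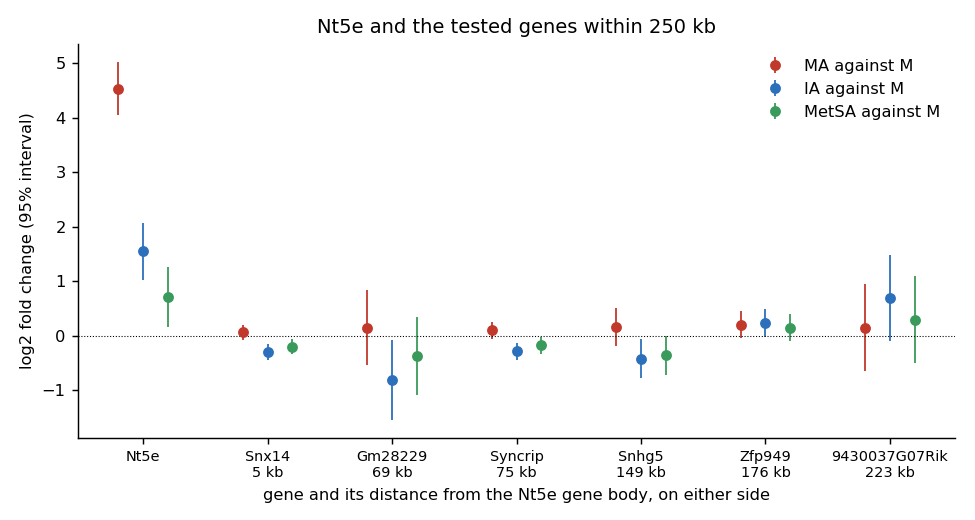
Log2 fold change with its 95% interval (y axis) of Nt5e and of the 6 tested genes within 250 kb of it (x axis, by distance), for each acid against M. Nt5e stands at 4.53 in MA, while the 6 neighbours lie between 0.06 and 0.21 in MA. In IA the called neighbours Snx14 and Syncrip lie at -0.30 and -0.29.

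Some genes elsewhere in the genome had a profile much like that of Nt5e over the 12 libraries. Likeness was the root mean square difference between log2 CPM profiles, each centred on its own mean, and this is a description since the profile chose the gene. The 6 nearest were Pmepa1 (0.53), Slc36a2 (0.58), Mcam (0.59), Gpr153 (0.60), Spsb1 (0.61) and F11r (0.62). Pmepa1, a membrane protein gene known as a TGF-beta target, averaged 27.0 CPM in MA, 2.39 in IA, 1.11 in MetSA and 0.663 in M. F11r, which encodes a junctional adhesion molecule, averaged 50.5 CPM in MA, 13.3 in IA, 9.23 in MetSA and 3.65 in M. Slc36a2, an amino acid transporter gene, averaged 4.53 CPM in MA, 0.262 in IA, 0.213 in MetSA and 0.194 in M, and its IA and M libraries overlapped.

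The receptors were weakly expressed, and none of them was called in any tested comparison of the main fit. Some alternatives called Adora2a or Adora2b. Adora2a, a cAMP-raising receptor gene at chr10:75316877-75334784, had only 22 to 74 counts a library. It was at 0.671, 0.760 and 0.808 CPM in MA, 0.468, 1.37 and 0.717 CPM in IA, 1.09, 0.870 and 1.44 CPM in MetSA, and 0.524, 0.593 and 0.535 CPM in M. All MetSA libraries and all MA libraries lay above all M libraries, whereas IA spread across them. MetSA against M gave a log2 fold change of 1.04 (SE 0.38, 95% interval 0.25 to 1.83, adjusted p = 0.0559), and 0.83 without MetSA replicate 3 (adjusted p = 0.185). DESeq2 called it (adjusted p = 0.0325), as did a stricter filter of 1 CPM in 3 libraries (adjusted p = 0.0418) and a repeat with all counts divided by 2 (adjusted p = 0.0486). IA against M gave 0.63 (SE 0.38, adjusted p = 0.215), which was 0.11 without IA replicate 2. MA against M gave 0.44 (SE 0.38, no test).

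Adora2b encodes the cAMP-raising receptor of lower affinity for adenosine and lies at chr11:62248984-62266453. Its levels were 3.58, 3.00 and 2.94 CPM in MA, 4.77, 3.23 and 3.14 in IA, 4.36, 3.81 and 4.96 in MetSA, and 4.25, 4.59 and 4.09 in M. MA lay below MetSA and below M with no overlap, and IA held 1 library among the highest and 2 near MA. The log2 fold change was -0.44 in MA against M (SE 0.18, 95% interval -0.82 to -0.07, no test). It was -0.46 in MA against MetSA (SE 0.18, 95% interval -0.84 to -0.09, adjusted p = 0.0639 by edgeR), and -0.36 without MetSA replicate 3 (adjusted p = 0.199). DESeq2 called it (adjusted p = 0.0467). So did edgeR with the replicate number as a block (adjusted p = 0.0461) and without IA replicate 1 (adjusted p = 0.0391). IA against M gave -0.22 (SE 0.18, adjusted p = 0.379), which was -0.43 without IA replicate 1. MetSA against M gave 0.02 (95% interval -0.35 to 0.39), and -0.08 without MetSA replicate 3 (adjusted p = 0.840). The 3 genes whose profiles were most like that of Adora2b were Thumpd2 (0.14), C5ar1 (0.14), the gene of the C5a receptor, and Elk1 (0.14).

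Adora3, the receptor gene at chr3:105870858-105908926, lay above M with each acid and passed no test where one was made. It was at 1.34, 1.94 and 1.73 CPM in MA, 1.32, 1.15 and 1.50 in IA, 1.28, 0.949 and 1.44 in MetSA, and 0.886, 0.889 and 0.917 in M. The 9 libraries of the acids all lay above the 3 of M, and the acids overlapped each other. Counts were low, at 44 to 102 a library. MetSA replicate 2, M replicate 2 and M replicate 3 each had 48 counts, so these libraries differ only by their scaling. The log2 fold change was 0.89 in MA against M (SE 0.26, 95% interval 0.34 to 1.45, no test), 0.56 in IA against M (SE 0.27, adjusted p = 0.115) and 0.45 in MetSA against M (SE 0.27, adjusted p = 0.269). Without MetSA replicate 3 the last value was 0.31 (adjusted p = 0.535). Adora3 shares 20.9% of its exonic bases with Tmigd3 on the same strand, which had 1 to 13 counts a library. How reads from the shared bases were counted is not given, so the size of the error in the Adora3 level is unknown.

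Slc29a1, the gene of the transporter ENT1 at chr17:45585200-45599606 on the minus strand, fell with IA. Its levels were 22.9, 26.3 and 27.1 CPM in MA, 19.5, 19.6 and 20.5 in IA, 22.6, 21.9 and 28.1 in MetSA, and 31.1, 27.0 and 31.3 in M. The IA libraries lay below those of every other group. In IA against M the log2 fold change was -0.58, a level 1.50-fold higher in M (SE 0.10, 95% interval -0.79 to -0.38, adjusted p = 9.27e-05 by edgeR's quasi-likelihood fit). MA against IA gave 0.35 (SE 0.10, 95% interval 0.15 to 0.56, adjusted p = 0.00770), so the level was 1.28-fold higher with MA than with IA. Both calls, like that of Nt5e in IA against M, held under all alternatives run.

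In MetSA against M, Slc29a1 fell by 0.30 on the log2 scale (SE 0.10, 95% interval -0.50 to -0.10, adjusted p = 0.0329), although MetSA replicate 3, at 28.1 CPM, lay above M replicate 2. Without MetSA replicate 3 the fall was 0.42 (adjusted p = 0.00217), and without MetSA replicate 2, where it was 0.23, the call was lost (adjusted p = 0.149). It was lost as well without MetSA replicate 1, M replicate 1, M replicate 3 or IA replicate 3. IA against MetSA gave -0.29 (SE 0.10, 95% interval -0.49 to -0.08, adjusted p = 0.0901) with no overlap, and -0.17 without MetSA replicate 3 (adjusted p = 0.388). MA against M gave -0.23 (SE 0.10, 95% interval -0.43 to -0.03, no test), and these groups overlapped at 27.1 and 27.0 CPM. The antisense gene Gm17080 covers 6.86% of the exonic bases of Slc29a1 and had 0 to 15 counts a library.

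The enzymes that consume adenosine inside the cell showed little movement. Ada, the deaminase gene at chr2:163726584-163750239, averaged 3.97 ± 0.30 CPM in MA, 4.15 ± 0.50 in IA, 4.50 ± 0.22 in MetSA and 3.97 ± 0.52 in M. Adk, the kinase gene at chr14:21052574-21448569, averaged 14.8 ± 0.33 CPM in MA, 15.3 ± 0.64 in IA, 16.0 ± 1.3 in MetSA and 16.2 ± 1.7 in M (SD, n = 3). Neither was called in any tested comparison. In IA against M the 95% interval of the log2 fold change was between -0.26 and 0.39 for Ada and between -0.28 and 0.12 for Adk, and in MetSA against M between -0.14 and 0.50 for Ada and between -0.22 and 0.18 for Adk. Without MetSA replicate 3 the MetSA values were 0.17 for Ada, against 0.18 with it, and -0.08 for Adk, against -0.02 with it.

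**Figure D3:**
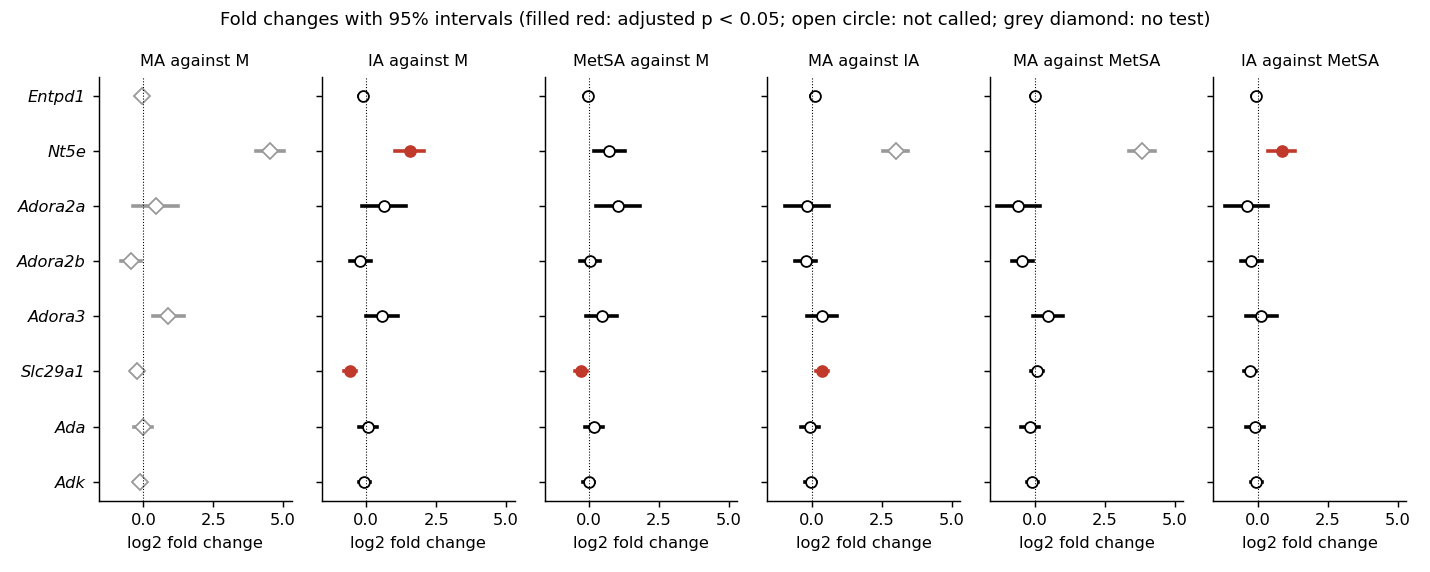
Log2 fold change (x axis) with its 95% interval for the 8 genes in 6 comparisons, where a filled red point is a call at an adjusted p under 0.05, an open circle no call and a grey diamond a value with no test. Nt5e, selected for its rise with MA, lies at 4.53 in MA against M, and Slc29a1 is called lower in IA (-0.58) and in MetSA (-0.30) against M.

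The calls were also counted over the set of 8 genes. In IA against M 2 of 8 were called, where 35.2% of all genes tested were, with 1 higher (Nt5e, against 17.9% of all genes higher) and 1 lower (Slc29a1, against 17.3% lower). In MetSA against M 1 of 8 was called, where 21.2% of all genes were, and it was lower (Slc29a1), as were 8.53% of all genes. In IA against MetSA 1 of 8 was called (Nt5e), where 6.12% of all genes were, and it was higher, as were 3.97% of all genes. Among the 7 genes other than Nt5e, 1 was called in MA against IA, where 34.6% of all genes were, and it was higher (Slc29a1), as were 16.8% of all genes. In MA against MetSA, where 26.4% of all genes were called, edgeR called 0 of these 7, of which 1 (Adora2b) had an unadjusted p under 0.05, and DESeq2 called 1, also Adora2b. Counts of 0 to 2 in so small a set are not a result about the 8.

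The 3 libraries of each group did not overlap for 4 of 8 genes in MA against M, where 35.6% of all genes did not overlap and 20.3% were called, and nothing is read from that contrast. The same held for 4 of 8 in IA against M (47.7% of all genes), 2 of 8 in MetSA against M (33.7%) and 2 of 8 in MA against IA (49.6%). It held for 4 of 8 in MA against MetSA (38.8%) and 2 of 8 in IA against MetSA (25.8%). Shares this close to those of all genes are not a result about the 8.

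Median log2 fold changes of the 8 genes were -0.02 in MA against M, -0.01 in IA against M and 0.10 in MetSA against M. Over all genes tested they were -0.02, -0.03 and -0.01 in the same comparisons.

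Levels can be compared between the genes per kilobase of exon. In RPKM (CPM divided by exon length in kilobases) Entpd1 came first in every group, at 34.9 ± 0.65 in MA, 33.0 ± 2.1 in IA, 34.9 ± 3.4 in MetSA and 35.9 ± 0.96 in M. Slc29a1 came second in every group, at 6.34 ± 0.56 in MA, 4.95 ± 0.13 in IA, 6.04 ± 0.84 in MetSA and 7.43 ± 0.60 in M, and was apart from its neighbours in each order. Adora2b, Ada and Adk followed between 1.72 and 2.37 RPKM, largely overlapping each other. Adora3 and Adora2a were between 0.180 and 0.448 RPKM, and overlapped in IA and MetSA. Nt5e was the lowest of the 8 in RPKM in IA (0.255), MetSA (0.142) and M (0.0867), and in IA it overlapped Adora2a. In MA it stood next after Slc29a1, at 2.01 ± 0.30 RPKM, overlapping Ada at 1.98 ± 0.15. The order rests on exon length, taken over all annotated exons, and which transcripts were expressed was not tested. In CPM Nt5e averaged 2.19 in IA, 1.22 in MetSA and 0.746 in M. Adora2a was lower in each, at 0.851, 1.13 and 0.550 CPM. Adora3, at 1.32, 1.22 and 0.897 CPM, was lower than Nt5e in IA only.

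The balance of the 2 producing enzymes' mRNAs follows from these levels. The RPKM of Entpd1 over that of Nt5e was 15.2, 17.0 and 20.8 in the MA libraries, 92.2, 153 and 163 in IA, 298, 213 and 247 in MetSA, and 401, 605 and 321 in M. These ratios did not overlap between the 4 groups, and in MA they include the values that chose Nt5e. MetSA and M lay close, with 298 the highest in MetSA and 321 the lowest in M. Their ratios rest on 28 to 72 counts of Nt5e a library. Nt5e itself overlapped between MetSA and M and was not called there, and the ratios were not tested.

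**Figure D4:**
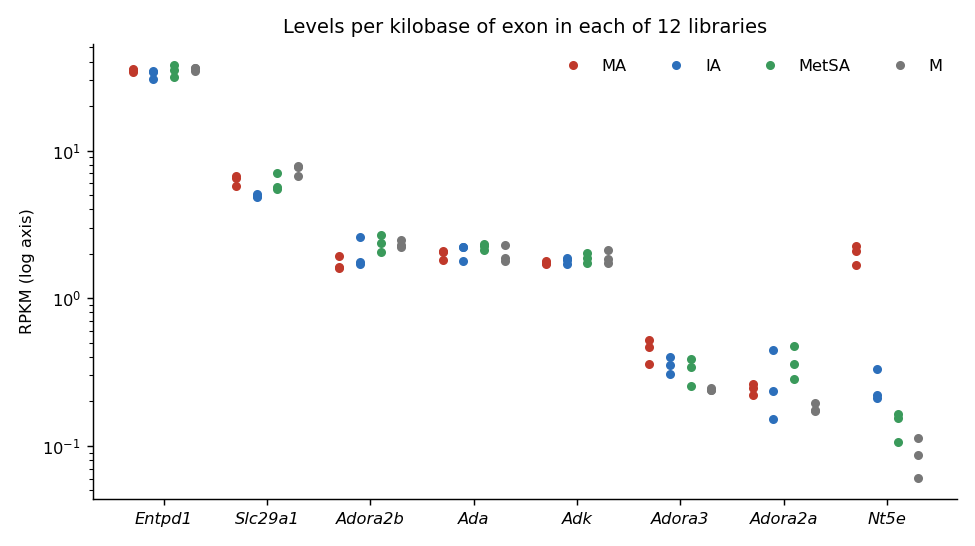
RPKM of the 8 genes (y axis, log scale) in each of the 12 libraries, coloured by group. Entpd1 and Slc29a1 lead in every group, and Nt5e lies with Adora2b, Ada and Adk in MA (2.01) but below all other genes' means in IA, MetSA and M.

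The wider purinergic system was read through 5 lists of 124 genes, of which 97 passed the filter. The lists were chosen with earlier results of these data known. Shares called above those of all genes are therefore a description of these lists only. In MA against M 22 were higher and 13 lower (36.1% called, against 20.3% of all genes tested). In IA against M 31 were higher and 16 lower (48.5%, against 35.2%), and 27 and 27 with upper-quartile scaling. In MetSA against M 28 were higher and 9 lower (38.1%, against 21.2%), and 25 and 15 with upper-quartile scaling. The list medians stayed within 0.02 of 0 on the log2 scale in these 3 comparisons. In MA against IA 20 were higher and 23 lower (44.3%, against 34.6%), and 23 and 18 with upper-quartile scaling, which turns the balance. In MA against MetSA 17 were higher and 24 lower (42.3%, against 26.4%), and 18 and 20 with that scaling. In IA against MetSA 10 were higher and 2 lower (12.4%, against 6.12%), and 6 and 1 without MetSA replicate 3. Without that library 26 were higher and 13 lower in MetSA against M. Of the 36 calls of named genes in comparisons with MetSA, 33 held without it and 3 were lost, all in IA against MetSA (Enpp6, Entpd7 and Rgs2).

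The list of other ectonucleotidases holds relatives such as Entpd7 and Enpp6, and whether each member cuts nucleotides outside the cell was not tested. Of its 11 tested genes, 2 were higher and 1 lower in MA against M (27.3% called, near the 20.3% of all genes). Enpp1, which cuts ATP to AMP and pyrophosphate, averaged 37.1 ± 3.0 CPM in MA and 24.8 ± 1.3 in M (log2 fold change 0.58, adjusted p = 9.77e-06). Acpp, the gene of prostatic acid phosphatase, which can also make adenosine from AMP, was at 5.09 ± 2.9 CPM in MA and 1.28 ± 0.42 in M (1.98, adjusted p = 0.0229). That call was lost without M replicate 1 or M replicate 3. Bst1, an ADP-ribosyl cyclase gene, fell to 7.40 ± 0.86 CPM in MA and rose to 15.4 ± 1.6 in IA, against 11.2 ± 1.1 in M (log2 fold changes -0.60 and 0.46, adjusted p = 0.00126 and 0.00516), and was at 11.9 ± 1.3 CPM in MetSA. In IA against M 4 rose and 1 fell (45.5%, against 35.2% of all genes), led by Enpp4, which encodes an enzyme known in vascular endothelium. It averaged 26.7 ± 3.6 CPM in IA and 3.05 ± 0.18 in M (3.13, SE 0.14, adjusted p = 4.16e-12). In MetSA against M it was the single call (9.09%, against 21.2% of all genes), at 15.9 ± 2.4 CPM in MetSA (2.38, adjusted p = 4.88e-10), and it was higher in IA than in MetSA by 0.75 (adjusted p = 0.00112). Enpp4 averaged 3.88 ± 0.42 CPM in MA.

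Of 28 genes of adenosine and AMP handling, 5 were higher and 6 lower in MA against M (39.3% called, against 20.3% of all genes), 9 and 6 in IA against M (53.6%, against 35.2%), and 10 and 5 in MetSA against M (53.6%, against 21.2%). Nt5c3, a cytosolic pyrimidine nucleotidase gene, averaged 111 ± 9.9 CPM in IA and 68.2 ± 7.0 in MetSA, against 21.8 ± 2.9 in M (log2 fold changes 2.34 and 1.64), and 17.6 ± 0.85 in MA (-0.31, adjusted p = 0.0335). Slc29a3, the gene of the lysosomal nucleoside transporter ENT3, was higher with all 3 acids. It was at 189 ± 1.9 CPM in MA, 292 ± 2.3 in IA and 226 ± 7.3 in MetSA, against 129 ± 3.5 in M (0.56, 1.18 and 0.82, adjusted p at most 1.76e-07). Adssl1, a gene of AMP synthesis from IMP, averaged 274 ± 7.4 CPM in MA and 155 ± 9.5 in MetSA, against 133 ± 0.83 in M (1.05 and 0.22, adjusted p = 1.50e-10 and 0.0109), and 141 ± 7.2 in IA (not called). Xdh, which encodes the enzyme that makes urate, rose by 0.55 in MA, 0.98 in IA and 0.53 in MetSA against M. Pnp, the purine nucleoside phosphorylase gene, rose by 2.02 in IA and 1.55 in MetSA against M (0.07 in MA, not called), with 17.1% of its sequence shared with other genes.

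Of 17 tested receptors for nucleotides and ATP release genes, 2 were higher and 2 lower in MA against M (23.5% called, near the 20.3% of all genes), 5 and 4 in IA against M (52.9%, against 35.2%), and 5 and 2 in MetSA against M (41.2%, against 21.2%). P2ry14, the UDP-glucose receptor gene, averaged 47.0 ± 5.7 CPM in IA and 33.4 ± 3.7 in MetSA, against 10.6 ± 1.2 in M (log2 fold changes 2.15 and 1.66). In MA it was at 7.76 ± 0.91 CPM (-0.45, adjusted p = 0.0109), a call lost without MA replicate 1 or M replicate 2. P2rx4, an ATP-gated channel gene, was at 449 ± 23 CPM in IA and 430 ± 18 in MetSA, against 293 ± 15 in M, and P2ry13, an ADP receptor gene, rose by 1.57 and 1.14 in the same comparisons. In MA neither was called, at -0.01 for P2rx4 and 0.27 for P2ry13. P2ry12, another ADP receptor gene, rose by 0.79 in MA (adjusted p = 0.000462), 1.41 in IA and 1.18 in MetSA against M.

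Of 27 cAMP signalling genes, 9 were higher and 1 lower in MA against M (37.0% called, against 20.3% of all genes). Of the same genes 6 were higher and 5 lower in IA against M (40.7%, against 35.2%) and in MetSA against M 5 and 2 (25.9%, against 21.2%), both near the share of all genes. Pde4d, a cAMP phosphodiesterase gene, averaged 7.16 ± 1.2 CPM in MA and 2.99 ± 0.20 in IA, against 1.90 ± 0.52 in M (log2 fold changes 1.91 and 0.65, adjusted p = 6.02e-06 and 0.0416), and 2.68 ± 0.95 in MetSA (not called). Adcy2, an adenylate cyclase gene, rose by 0.97 and Prkar2b, a regulatory subunit gene of protein kinase A, by 0.63 in MA against M. Prkar2b fell by 0.41 in IA against M (adjusted p = 0.00492), where Adcy2 was not called (-0.16), and neither was called in MetSA against M (-0.13 for Prkar2b and -0.44 for Adcy2). Adcy7, another cyclase gene, fell by 0.31 in IA and 0.27 in MetSA against M and was not called in MA (0.05).

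Genes known to respond to CREB and cAMP numbered 14 tested, of which 4 were higher and 3 lower in MA against M, and 7 were higher in IA against M and 7 in MetSA against M, with the others not called (50.0% in each, against 20.3%, 35.2% and 21.2% of all genes). The falls with MA included Il10, an anti-inflammatory cytokine gene, at 0.498 ± 0.069 CPM in MA and 2.93 ± 0.61 in M (log2 fold change -2.55, adjusted p = 1.37e-08). With IA and MetSA the same gene rose, to 8.79 ± 0.73 and 7.54 ± 0.68 CPM. Dusp1, a phosphatase gene of MAP kinases, fell by 1.07 in MA against M and was not called in IA (0.09) or MetSA (-0.09). Rgs2, a regulator of G protein signalling, rose by 0.45 in MA, 0.51 in IA and 0.24 in MetSA against M. Thbs1, the thrombospondin gene, averaged 993 ± 242 CPM in MA, 1425 ± 179 in IA and 1036 ± 154 in MetSA, against 190 ± 33 in M (log2 fold changes 2.39, 2.91 and 2.45, adjusted p at most 3.47e-05).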

How the data were processed

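Poly(A) RNA-seq of 12 mouse macrophage libraries was deposited as a table of whole-number counts per gene, which the authors had not normalised. The submitters' processing notes name STAR, featureCounts and mm10, and the labels give no version, annotation or strand setting. Of counts from 1 to 9, 66.1% were even, against 50.9% of counts of 1000 or more, so mates may have been counted separately, and a repeat divided all counts by 2.

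Symbols, positions and exon lengths came from GENCODE M21 (GRCm38, 1-based). filterByExpr kept 14113 genes with 99.98% of counts. CPM uses TMM library sizes, and RPKM also exon length. One edgeR 4.0.16 quasi-likelihood fit (R 4.3.3, limma 3.58.1) held the 12 libraries (residual degrees of freedom 8), and 6 comparisons were made. Calls are Benjamini-Hochberg adjusted p under 0.05 over all genes tested. Errors after ± are SDs. DESeq2 1.42.0, other scalings and filters, the 2 groups alone and each library left out were alternatives. The tests were checked on simulated data. Of the 124 listed genes 123 were found. Icer was not.

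The members and lists were chosen with earlier results of these data known. Named genes were all 8 members, the tested genes within 250 kb of Nt5e, up to 3 called genes of each list and comparison with the smallest adjusted p, and the profiles nearest to Nt5e (6) and Adora2b (3).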

Additional observations from a re-analysis of the deposited data

How the results depend on the processing

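No value changed sign with a call under any alternative. Nt5e in IA against M (1.32 to 1.79 over the libraries left out) and Slc29a1 in IA against M (-0.65 to -0.55) and MA against IA (0.31 to 0.43) kept their calls. Of the 8 genes 1 was called in MetSA against M, 3 with no filter on low counts or by DESeq2, 2 with the stricter filter or counts divided by 2, 0 with the 2 groups alone and 0 to 3 with a library left out. In IA against MetSA 1 was called, 2 with no filter, 0 with the 2 groups alone and 0 to 1 with a library left out. In MA against MetSA 0 of 7 were called, 1 by DESeq2 and 0 to 1 with a library left out. Counts with a library left out were 2 to 2 in IA against M and 1 to 1 of 7 in MA against IA.

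Listed genes lower in IA against M numbered 16, and 27 with upper-quartile scaling. In MetSA against M they were 9, and 15 with that scaling. In IA against MetSA they were 2, and 1 with RLE factors or the 2 groups alone. With a library left out, higher and lower counts ran from 20 to 22 and 8 to 14 in MA against M, 27 to 31 and 11 to 17 in IA against M, 23 to 28 and 5 to 13 in MetSA against M, 17 to 21 and 20 to 24 in MA against IA, 14 to 18 and 19 to 24 in MA against MetSA, and 5 to 10 and 0 to 4 in IA against MetSA. The lowest counts came without MA replicate 1 (8), M replicate 1 (5), IA replicate 3 (5) and IA replicate 1 (0). The genes near Nt5e gave 10 calls over 6 comparisons, and 6 (without MA replicate 2) to 12 with a library left out. The causes were not tested.

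Replicate numbers recur in the groups, and the labels do not say what same-numbered libraries share. Such libraries of different groups deviated together weakly (r from 0.012 to 0.169, median 0.069, over 18 pairs). Pairs of other numbers had r from -0.113 to 0.023 (median -0.032, 36 pairs). All 12 libraries correlated best with their own number, a hint of pairing from the data that the labels do not state. The main fit did not use the number. With the replicate number as a block in the edgeR fit, 2 of 8 genes were called in MetSA against M. These were Slc29a1 (adjusted p = 0.0102) and Adora2a (adjusted p = 0.0460). In IA against MetSA 2 were called, Nt5e (adjusted p = 0.0317) and Slc29a1 (adjusted p = 0.0404). In MA against MetSA 1 of 7 was called (Adora2b, adjusted p = 0.0461), and 5 listed genes were lower in IA against MetSA.

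Depth limits Adora2a, Adora3 and Nt5e outside MA most.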
